A study of Mus musculus with 18 samples.

Results

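The DNA replication machinery was followed through 46 genes that were picked by name for their role at the replication fork out of 54347 genes in the table. They fall into 9 roles, which are licensing of origins (5 genes), the MCM helicase core (6), helicase activation (6), polymerase alpha-primase (4), polymerases delta and epsilon (5), the sliding clamp and its loaders (8), lagging strand maturation and single-strand binding (4), nucleotide supply (5) and chromatin assembly and maintenance in S phase (3). Their RNA was measured by RNA-seq in marrow-derived mesenchymal stem cells (MSC), adherent progenitors from the marrow of male C57BL/6J mice for which no engineered allele is named, in 18 libraries of 6 groups with 3 libraries each. The first experiment compared MSC without treatment (control) with MSC exposed either to CK666, which inhibits branching of actin by Arp2/3, or to cytochalasin D (CytoD), which blocks growth of actin filaments and moves actin into the nucleus. In the second, every group went through transfection, which delivered a control siRNA (siControl), an siRNA against Arp4 (siArp4), or the latter followed by CK666 (siArp4+CK666). A group with the control siRNA and CK666 was not analysed here, so the effect of CK666 in transfected cells was read only in cells that had received siArp4. The cells were primary MSC made from several mice. Per the methods, the 3 libraries of a group came from separate preparations, and whether these came from separate animals is not given in the sources used here, so p-values measure the spread between the preparations.

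Replication begins when the origin recognition complex, Cdc6 and Cdt1 load rings of MCM proteins on DNA in G1, and geminin later blocks Cdt1 so that no origin is loaded again. In S phase Cdc45 and GINS join MCM to form the active helicase, polymerase alpha-primase lays down primers, polymerases epsilon and delta extend them on the clamp PCNA, and the RPA proteins cover the single strands. Many of these genes are known targets of E2F transcription factors, and their RNA is most abundant in dividing cells.

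Promoter sequence is shown first because these genes are known for E2F sites near their starts. RefSeq promoters on GRCm38.p6, from 250 bases before to 50 bases after each start, were matched by symbol to 37 of the 46 genes (43 promoters). Dscc1, Pole, Rfc2, Gins1, Mcm4, Gmnn, Gins4, Gins2 and Prim2 had no entry. Each promoter was searched on both strands for 4 words of 8 letters, TTTGGCGC, TTTGCCGC, TTTCGCGC and TTTCCCGC, which are common forms of the E2F site. A word was present in 15 of the 43 promoters (34.9%), against 2.26% of all 32851 promoters of the same length. By gene it was found in 15 of 37, which are Orc1, Cdc6, Cdt1, Mcm3, Mcm5, Mcm6, Mcm7, Gins3, Pola1, Pold1, Pold3, Pole2, Rfc3, Lig1 and Uhrf1. The letters CCAAT, searched in the same way, were in 58.1% of the member promoters and 37.4% of all, and TTTGAA, the core of the cell cycle homology region, was in 11.6% and 17.9%. A match of letters is a description and not a bound site. The 8 windows of 30 bases below show a word for genes whose values are given later, from licensing to chromatin, read 5′ to 3′ on the strand of the gene. Capitals mark bases that belong to a word in either direction.
Cdc6 (chr11:98908002-98908031, plus strand): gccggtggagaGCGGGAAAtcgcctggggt
Cdt1 (chr8:122568035-122568064, plus strand): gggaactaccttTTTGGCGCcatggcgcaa
Orc1 (chr4:108579416-108579445, plus strand): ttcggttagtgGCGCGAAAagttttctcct
Mcm5 (chr8:75109345-75109374, plus strand): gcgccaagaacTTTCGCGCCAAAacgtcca
Mcm6 (chr1:128359797-128359826, minus strand): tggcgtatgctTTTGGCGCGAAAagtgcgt
Pola1 (chrX:93632275-93632304, minus strand): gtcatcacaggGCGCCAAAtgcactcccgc
Lig1 (chr7:13278841-13278870, plus strand): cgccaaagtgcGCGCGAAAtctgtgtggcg
Uhrf1 (chr17:56304117-56304146, plus strand): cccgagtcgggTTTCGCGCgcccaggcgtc
In Mcm5 and in Mcm6 a pair of words overlapped to form a single run of 12 capitals. Counted from the gene's start, the word began at position 32 in Cdt1, at -27 in Orc1 and at -138 in Cdc6.

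Total estimated counts were 18075610 to 24733212 per library. Levels below are normalized counts, that is counts divided by size factors set over all 18 libraries, and every one of the 46 genes had an adjusted p in each comparison, so none was lost to a filter on low values. Actl6a, the gene of Arp4, was at 717 to 1158 normalized counts in siControl, 19.5 to 58.6 in siArp4 and 9.47 to 23.2 in siArp4+CK666. The cell label was checked on 15 mesenchymal markers, of which 12 or 13 reached a mean of 10 in each group while Thy1 was at 0 throughout. Of 13 blood cell and macrophage markers, 4 reached a mean of 10 in each group except CK666, where 5 did. Ptprc and Adgre1 were at 0 in all groups but siArp4+CK666. The summed level of these 13 markers stayed between 148 and 407 in every library. Of 7 endothelial markers, 1 reached a mean of 10 in each group except siArp4+CK666, where 2 did. Over these 46 genes siControl was the group with the widest spread. The median coefficient of variation of the siControl libraries was 21.1%, against 5.96% in control, 13.4% with CK666, 6.31% with CytoD, 8.36% in siArp4 and 15.8% in siArp4+CK666. Library siControl 1 was the lowest of its group for 28 genes and siControl 2 the highest for 27. The size factor of siControl 2, 0.774, was the smallest of the 18. Counts against siControl, and the values of genes that then passed or no longer passed an adjusted p below 0.01, are therefore also given without single siControl libraries. Libraries were unstranded, and 15 of the 46 genes share exon bases with a gene on the other strand, 10 of them with a partner at a mean of 100 or more. The overlap was longest for Chaf1a with Ubxn6 (4648 of 8854 exon bases) and Gins2 with Gse1 (2758 of 4097), so the values of these genes are uncertain.

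The 46 genes together took 0.531% ± 0.0094 of all counts in control (SD, n = 3 here and for the other groups). That share was 0.260% ± 0.013 with CK666 and 0.274% ± 0.0029 with CytoD, and every library of either drug lay below all controls. It was 0.262% ± 0.0066 in siControl, 0.174% ± 0.0052 in siArp4 and 0.122% ± 0.0046 in siArp4+CK666. The groups of the second experiment did not overlap either, in the order siControl, siArp4, siArp4+CK666. In bulk RNA fewer cells in S phase and less of these RNAs per cell cannot be told apart.

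**Figure D1:**
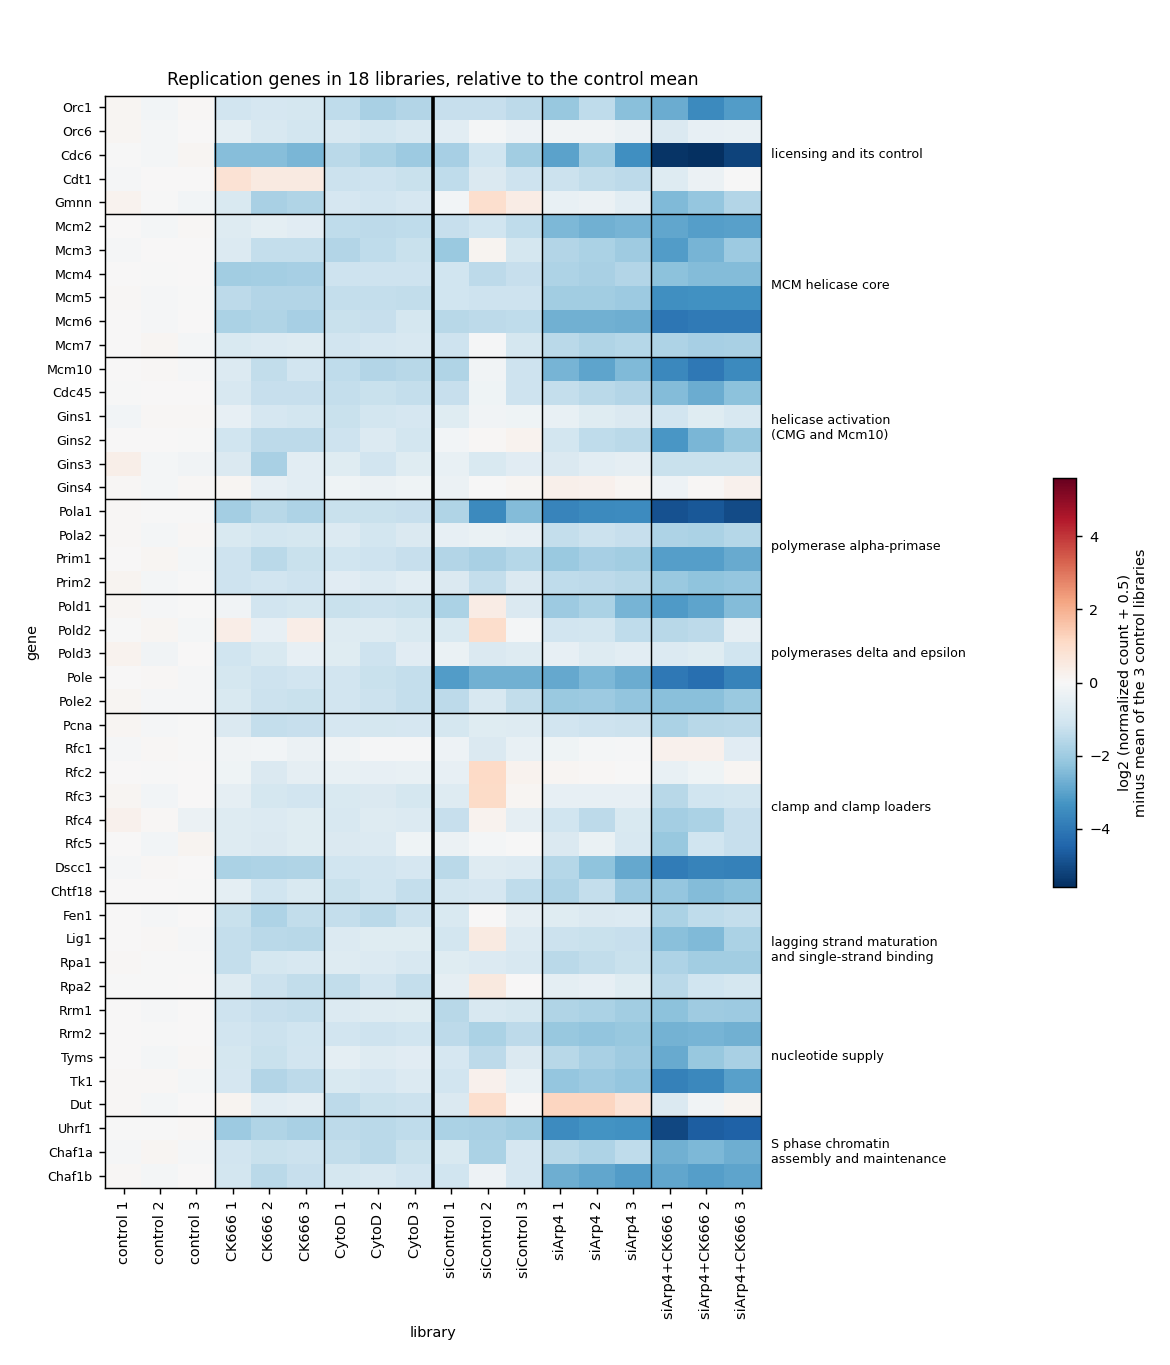
Colour gives log2 (normalized count + 0.5) minus the mean of the 3 control libraries, for 46 genes (vertical axis, grouped by role) in 18 libraries (horizontal axis, the thick line parts the experiments). Most rows are blue in every treated library, Cdt1 is red in the 3 CK666 libraries, and siControl 2 differs from its neighbours in many rows.

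Control cells expressed the machinery at very unequal levels. Per kilobase of exon, Rrm2, the small subunit of ribonucleotide reductase, led with 7425 ± 206 normalized counts (SD, n = 3), followed by the clamp gene Pcna with 2862 ± 182. Next came Mcm4 at 1366 ± 16.3, Mcm6 at 1282 ± 35.5 and Mcm3 at 1220.0 ± 36.7, of which Mcm6 and Mcm3 did not differ beyond their spread. Uhrf1, at 907 ± 30.8, Mcm5, at 902 ± 40.6, and Mcm7, at 859 ± 60.8, were within each other's spread as well. Mcm2, whose protein sits in the same ring, was lower per kilobase, at 573 ± 33.8. The length used was that of all annotated exons of a gene merged, which can exceed that of any transcript. It was 6956 bases for Mcm2 and 3993 for Mcm5, and as counts, given below, Mcm2 was not lower than Mcm5. The order of genes in this paragraph depends on these lengths. At the other end stood Cdc6 at 94.4 ± 8.23, Gins3 at 80.2 ± 16.0, Orc1 at 61.2 ± 5.83 and Dscc1 at 48.6 ± 2.47, where Cdc6 and Gins3 did not differ beyond their spread. The loading factors Cdc6 and Orc1 were thus among the 4 lowest, while Cdt1 was at 465 ± 18.3 and its inhibitor Gmnn at 368 ± 45.9.

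After CK666 most of the machinery fell. At an adjusted p below 0.01 by the DESeq2 Wald test, adjusted over all genes tested, 41 of 46 genes fell (14.7% of all tested genes did) and 1, Cdt1, rose (15.3% of all). With a change of more than 2-fold required as well, 28 fell (6.06% of all) and 0 rose (4.89% of all), while 1 was higher at an unadjusted p below 0.05 and edgeR likewise called 0 higher. The median log2 fold change was -1.07, against 0.013 over all genes tested. For 42 genes every CK666 library lay below every control, which held for 24% of all genes. The range ran from -2.45 for Cdc6 to 0.62 for Cdt1. The count of 41 was 37 without control 1, 43 without CK666 1 and 36 with all 18 libraries in 1 fit. The summed level of the 15 mesenchymal markers moved in the same direction, at 122498 to 140479 with CK666 against 229636 to 243616 in control, and its part in the result was not tested.

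After CytoD all 46 genes had a negative log2 fold change, or 45 when libraries were scaled by their upper quartile. Under the same test 43 of 46 genes fell (16% of all tested genes) and 0 rose (13.6% of all). By more than 2-fold 24 fell (4.32% of all) and 0 rose (4.8% of all), while 0 were higher at an unadjusted p below 0.05 and edgeR called 0 higher. The median log2 fold change was -1.07, against 0.0076 over all genes tested. Every CytoD library lay below every control for all 46 genes, against 29.8% of all genes. Cdc6 had the lowest log2 fold change, -1.77, and Rfc1 the one closest to 0, -0.11. The count of 43 was 40 without control 1, 44 without CK666 2 and 36 with all 18 libraries in 1 fit. Here the mesenchymal marker sum was above control, at 291406 to 310006. The drugs share their control libraries, so their values are given side by side and not as support for each other.

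**Figure D2:**
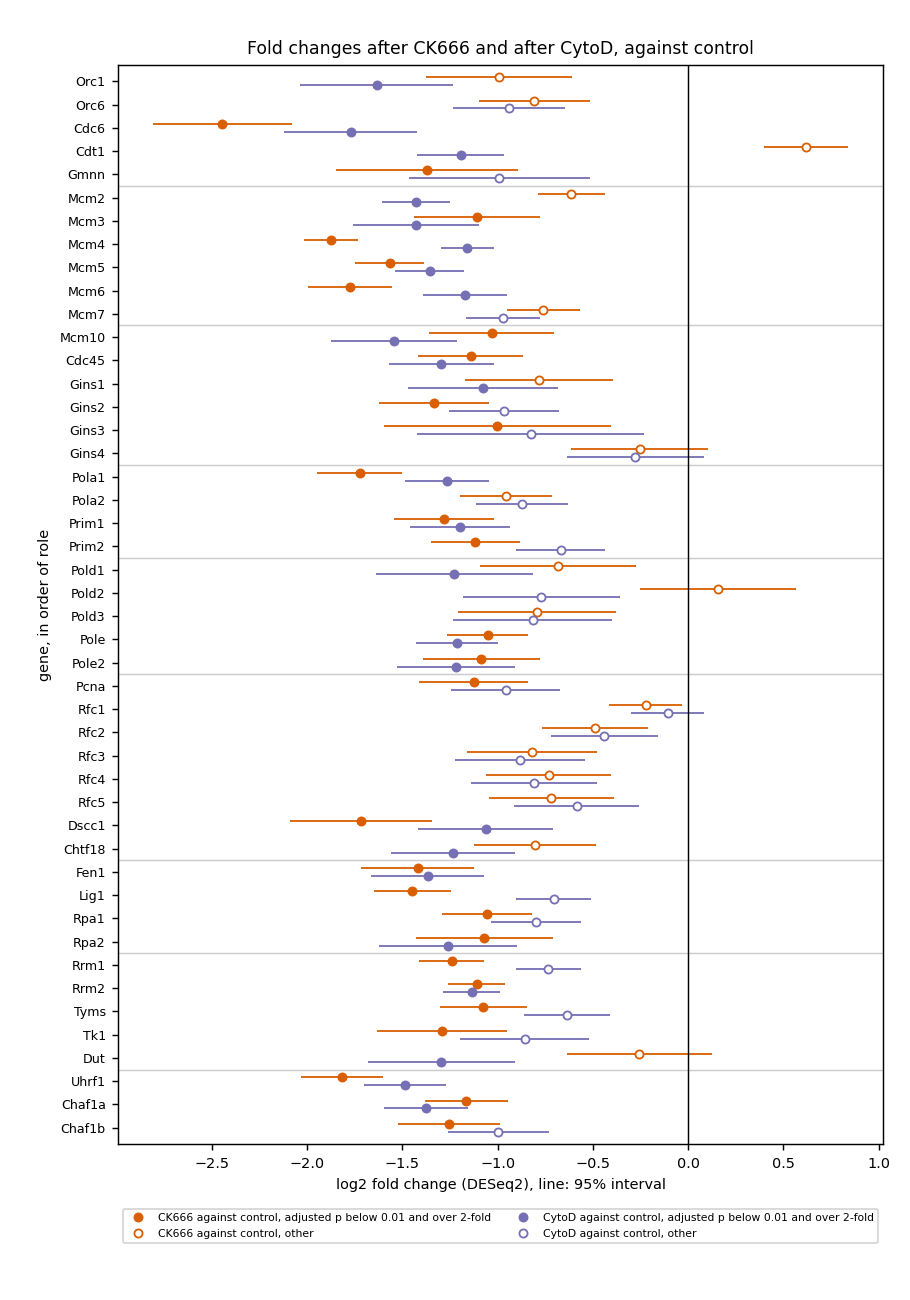
Horizontal axis, log2 fold change against control by DESeq2 with its 95% interval; vertical axis, 46 genes by role. Filled points passed an adjusted p below 0.01 and 2-fold (28 for CK666, 24 for CytoD); for Cdt1 and Pold2 the points of the drugs lie on opposite sides of 0.

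Licensing held Cdt1, the gene on which the drugs differed most. Of 5 genes, 4 fell and 1 rose with CK666, and all 5 fell with CytoD. Cdc6, the ATPase that brings MCM to origins, was at 492, 452 and 538 in the control libraries, 93.4, 92.6 and 83.4 after CK666 and 172, 145 and 119 after CytoD. The groups did not overlap, and the CK666 libraries were the lowest of the 9. Its log2 fold change (± SE, as below) was -2.45 ± 0.19 (adjusted p = 9.92e-38) with CK666 and -1.77 ± 0.18 (adjusted p = 1.63e-21) with CytoD. Cdt1, the partner of Cdc6 in loading, was at 1392, 1495 and 1488 in the control libraries, 2517, 2059 and 2076 after CK666 and 637, 658 and 622 after CytoD. Here CK666 libraries were the highest and CytoD libraries the lowest, with no overlap among the groups. The change was 0.62 ± 0.11 (adjusted p = 3.17e-07) with CK666 and -1.19 ± 0.12 (adjusted p = 2.86e-23) with CytoD. Gmnn, the gene of geminin, was at 614, 522 and 482 in the control libraries, 301, 152 and 167 after CK666 and 280.3, 258 and 279 after CytoD. All treated libraries were below all controls, and CK666 1 stood above the other CK666 libraries. Gmnn changed by -1.37 ± 0.24 (adjusted p = 1.86e-07) with CK666 and -0.99 ± 0.24 (adjusted p = 2.41e-04) with CytoD. Orc1, the large ATPase of the origin recognition complex, was at 228, 189.9 and 221 in the control libraries, 100.048, 111 and 107 after CK666 and 79.9, 59.5 and 67.4 after CytoD. Its values were in the order control, CK666, CytoD without overlap, with -0.99 ± 0.20 (adjusted p = 2.93e-06) for CK666 and -1.63 ± 0.20 (adjusted p = 3.42e-14) for CytoD. Orc6, the smallest subunit, was at 1092, 927 and 1016 in the control libraries, 683, 543 and 493 after CK666 and 550.2, 498 and 539 after CytoD. The drug libraries overlapped each other and lay below control, with -0.81 ± 0.15 (adjusted p = 4.66e-07) for CK666 and -0.94 ± 0.15 (adjusted p = 3.31e-09) for CytoD.

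Because Cdt1 and geminin act as a pair, their ratio was taken in every library. Cdt1 counts per Gmnn count were 2.27, 2.86 and 3.09 in control, 8.36, 13.6 and 12.4 with CK666 and 2.27, 2.55 and 2.23 with CytoD. The CK666 libraries were far above the others, while control and CytoD overlapped. In the second experiment it was 1.12, 0.792 and 0.920 in siControl, 1.59, 1.30 and 1.47 with siArp4 and 9.10, 9.58 and 8.30 with siArp4+CK666. Again the libraries with CK666 were the highest, without overlap. The means were 2.74 ± 0.422 (SD, n = 3), 11.5 ± 2.74, 2.35 ± 0.172, 0.946 ± 0.167, 1.45 ± 0.148 and 8.99 ± 0.643 in the same order. The ratio was chosen after the values of both genes were seen and is given without a test.

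**Figure D3:**
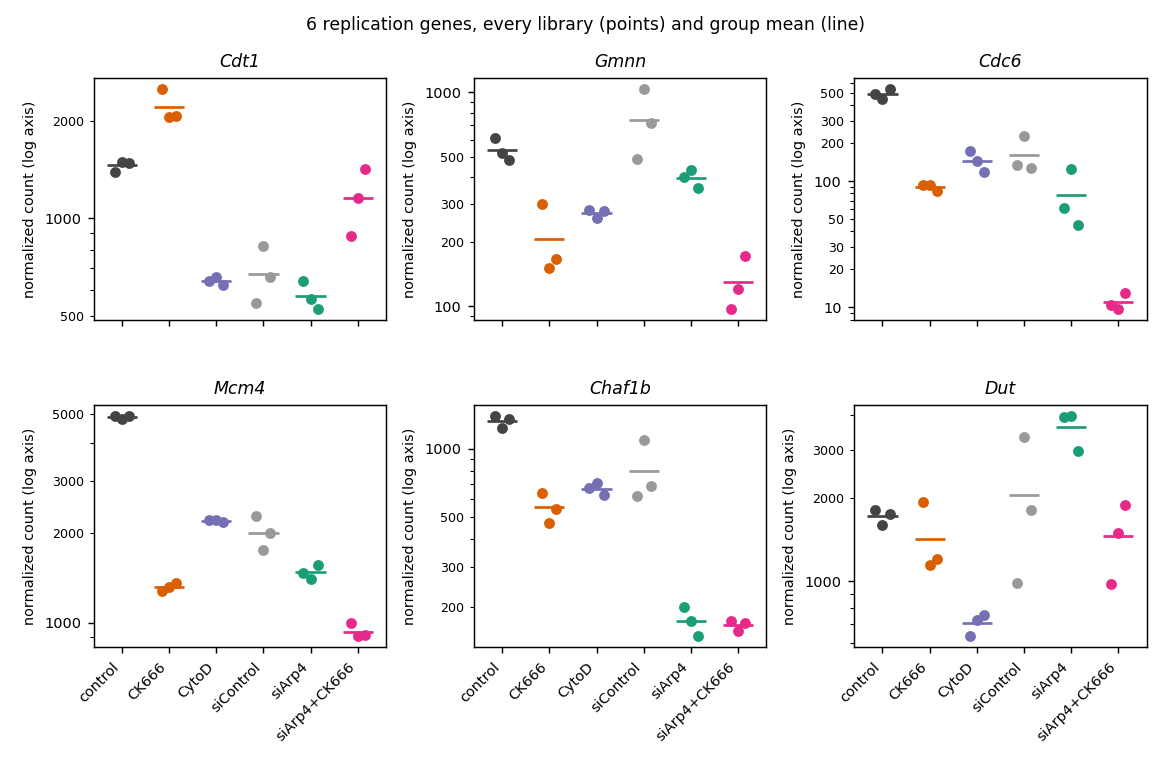
Normalized counts (vertical, log axis) of Cdt1, Gmnn, Cdc6, Mcm4, Chaf1b and Dut in the 6 groups; points are libraries and lines are group means of 3. Cdt1 is highest with CK666 in each experiment, Chaf1b overlaps between siArp4 and siArp4+CK666, and the siControl points of Dut span from 984 to 3349.

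All 6 MCM genes, the subunits of the replicative helicase ring, fell with either drug, 4 of them by more than 2-fold with CK666 and 5 with CytoD. Mcm2 was at 4002, 3745 and 4215 in the control libraries, 2417, 2733 and 2598 after CK666 and 1507, 1442 and 1507 after CytoD. CytoD libraries were the lowest and CK666 libraries lay between, with -0.61 ± 0.090 (adjusted p = 1.57e-10) for CK666 and -1.43 ± 0.091 (adjusted p = 1.95e-52) for CytoD. Mcm4 showed the reverse order, at 4935, 4834 and 4935 in the control libraries, 1283, 1322 and 1364 after CK666 and 2208, 2214 and 2182 after CytoD. Its CK666 libraries were the lowest without overlap, with -1.88 ± 0.072 (adjusted p = 2.79e-146) for CK666 and -1.16 ± 0.071 (adjusted p = 1.25e-57) for CytoD. Mcm5 was at 3767, 3443 and 3595 in the control libraries, 1298, 1171 and 1144 after CK666 and 1409, 1439.5 and 1385 after CytoD. CK666 libraries lay just below CytoD libraries and both far below control, with -1.57 ± 0.092 (adjusted p = 2.16e-62) for CK666 and -1.36 ± 0.092 (adjusted p = 7.13e-47) for CytoD. Mcm6 changed by -1.77 ± 0.11 (adjusted p = 1.38e-53) with CK666 and -1.17 ± 0.11 (adjusted p = 8.72e-24) with CytoD. Mcm3 changed by -1.11 ± 0.17 (adjusted p = 6.38e-10) and -1.43 ± 0.17 (adjusted p = 6.70e-16), and Mcm7 by -0.76 ± 0.099 (adjusted p = 2.85e-13) and -0.97 ± 0.099 (adjusted p = 5.22e-21), in the same order of drugs. CK666 thus left the 6 genes between -1.88 and -0.61, a wider span than the -1.43 to -0.97 after CytoD.

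Of 6 helicase activation genes, 5 fell with CK666 and 4 with CytoD. Cdc45, which joins MCM and GINS in the active helicase, was at 725, 746 and 767 in the control libraries, 395, 302 and 307 after CK666 and 299, 319 and 297 after CytoD. The drug groups overlapped below control, with -1.14 ± 0.14 (adjusted p = 5.59e-15) for CK666 and -1.30 ± 0.14 (adjusted p = 1.09e-18) for CytoD. Gins2, a GINS subunit, was at 1344, 1347 and 1329 in the control libraries, 615, 483 and 481 after CK666 and 603, 799.6 and 659.6 after CytoD. CytoD libraries were somewhat above the CK666 ones, with an overlap between them, at -0.97 ± 0.15 (adjusted p = 7.69e-10) for CytoD and -1.33 ± 0.15 (adjusted p = 6.91e-18) for CK666. Mcm10, an initiation factor that activates the helicase, changed by -1.03 ± 0.17 (adjusted p = 6.32e-09) with CK666 and -1.54 ± 0.17 (adjusted p = 2.01e-18) with CytoD. Gins1 changed by -0.78 ± 0.20 (adjusted p = 3.80e-04) and -1.08 ± 0.20 (adjusted p = 6.77e-07). Gins3 passed with CK666, at -1.002 ± 0.30 (adjusted p = 0.00381), but not with CytoD, at -0.83 ± 0.30 (adjusted p = 0.0196). With CK666 it did not pass without control 1, at -0.83 (adjusted p = 0.0489), or without control 2, at -1.06 (adjusted p = 0.0138). Nor did it pass without CK666 2, at -0.71 (adjusted p = 0.0161). Gins4 passed with neither, with 95% intervals of -0.61 to 0.11 for CK666 and -0.64 to 0.082 for CytoD.

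The 4 polymerase alpha-primase genes, whose product starts each new strand, all fell with both drugs. Pola1, the catalytic subunit, was at 1639, 1569 and 1557 in the control libraries, 418, 533 and 477 after CK666 and 673, 670.2 and 647 after CytoD. The order control, CytoD, CK666 held without overlap, with -1.73 ± 0.11 (adjusted p = 6.69e-50) for CK666 and -1.26 ± 0.11 (adjusted p = 1.34e-27) for CytoD. Prim1, the catalytic primase, was at 1046, 1104 and 958 in the control libraries, 468, 362 and 433 after CK666 and 475, 462 and 423 after CytoD. The drug libraries overlapped, with -1.28 ± 0.13 (adjusted p = 4.00e-20) for CK666 and -1.20 ± 0.13 (adjusted p = 1.65e-17) for CytoD. Prim2, the other primase subunit, changed by -1.12 ± 0.12 (adjusted p = 3.17e-19) and -0.67 ± 0.12 (adjusted p = 1.54e-07), and Pola2, an accessory subunit, by -0.96 ± 0.12 (adjusted p = 1.06e-13) and -0.87 ± 0.12 (adjusted p = 1.80e-11).

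Of the 5 genes of polymerases delta and epsilon, 4 fell with CK666 and 5 with CytoD. Pole, the catalytic subunit of the leading strand enzyme, was at 1444, 1487 and 1395 in the control libraries, 722, 646 and 695 after CK666 and 687, 611 and 574 after CytoD. The drug groups overlapped below control, with -1.05 ± 0.11 (adjusted p = 1.66e-20) for CK666 and -1.21 ± 0.11 (adjusted p = 1.88e-26) for CytoD. Pold1, the catalytic subunit for the lagging strand, was at 1478, 1293 and 1333 in the control libraries, 1188, 653 and 689.9 after CK666 and 583, 595 and 578 after CytoD. CK666 1 lay far above the other CK666 libraries but below all controls. Pold1 changed by -0.68 ± 0.21 (adjusted p = 0.00423) with CK666 and -1.23 ± 0.21 (adjusted p = 5.39e-08) with CytoD. Over the alternatives run its adjusted p reached 0.202 with CK666 and 0.0116 with CytoD. The accessory gene Pold2 was at 697, 769 and 656 in the control libraries, 912, 512 and 916 after CK666 and 429.8, 423 and 393 after CytoD. CK666 overlapped control in it and CytoD did not. Pold2 changed by 0.16 ± 0.21 (adjusted p = 0.596) with CK666 and -0.77 ± 0.21 (adjusted p = 0.00109) with CytoD. Over the alternatives run its adjusted p with CytoD reached 0.116. Pold3 changed by -0.79 ± 0.21 (adjusted p = 8.32e-04) and -0.82 ± 0.21 (adjusted p = 5.79e-04), and Pole2 by -1.09 ± 0.16 (adjusted p = 5.78e-11) and -1.22 ± 0.16 (adjusted p = 2.35e-13).

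Of the 8 clamp and clamp loader genes, 7 fell with either drug, 2 of them by more than 2-fold. Pcna, the ring that tethers polymerases, was at 7366, 6545 and 6693 in the control libraries, 3866, 2684 and 2792 after CK666 and 3554, 3466 and 3623 after CytoD. The drug groups overlapped, CK666 1 being the highest of them, with -1.13 ± 0.15 (adjusted p = 1.83e-13) for CK666 and -0.96 ± 0.15 (adjusted p = 6.19e-10) for CytoD. Rfc1, the large subunit of the main clamp loader, was at 1628, 1763 and 1656 in the control libraries, 1469, 1494 and 1321 after CK666 and 1466, 1616 and 1619.9 after CytoD. The treated libraries were below control by little, and neither -0.22 ± 0.098 (adjusted p = 0.0572) for CK666 nor -0.11 ± 0.098 (adjusted p = 0.417) for CytoD passed. The small subunit Rfc3 was at 702, 591 and 674 in the control libraries, 461, 332 and 309 after CK666 and 362, 378 and 331 after CytoD. Both drugs lay below control, with -0.82 ± 0.17 (adjusted p = 1.59e-05) for CK666 and -0.88 ± 0.17 (adjusted p = 3.45e-06) for CytoD. The log2 fold changes of Rfc2, Rfc4 and Rfc5 were -0.49, -0.73 and -0.72 with CK666 and -0.44, -0.81 and -0.59 with CytoD, all past the test. Over the alternatives run their adjusted p reached 0.190, 0.0436 and 0.00728 with CK666 and 0.270, 0.0262 and 0.0406 with CytoD. That of Rfc3 reached 0.0342 and 0.0245. By edgeR 6 of the 8 genes fell with either drug. Dscc1, part of a loader that also serves sister chromatid cohesion, was at 203, 222 and 221 in the control libraries, 63.2, 64.0 and 67.3 after CK666 and 97.6, 102 and 111 after CytoD. CK666 libraries were the lowest without overlap, with -1.72 ± 0.19 (adjusted p = 4.58e-18) for CK666 and -1.06 ± 0.18 (adjusted p = 4.55e-08) for CytoD. Its partner Chtf18 changed by -0.80 ± 0.16 (adjusted p = 7.06e-06) and -1.23 ± 0.17 (adjusted p = 2.16e-12).

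All 4 genes of lagging strand maturation and single-strand binding fell with both drugs. Fen1, the nuclease that trims Okazaki fragments, was at 1445, 1356 and 1453 in the control libraries, 601, 424 and 548 after CK666 and 555, 491 and 607 after CytoD. The drug groups overlapped, with -1.42 ± 0.15 (adjusted p = 1.66e-19) for CK666 and -1.37 ± 0.15 (adjusted p = 4.63e-18) for CytoD. Lig1, the ligase that joins the fragments, was at 2347, 2444 and 2252 in the control libraries, 940.1, 825 and 792 after CK666 and 1386, 1469 and 1478 after CytoD. CK666 was lower than CytoD without overlap, with -1.45 ± 0.10 (adjusted p = 1.77e-43) for CK666 and -0.71 ± 0.10 (adjusted p = 4.00e-11) for CytoD. The adjusted p of Lig1 with CytoD reached 0.0595 over the alternatives run. Rpa1, the large RPA subunit, was at 4245, 3996 and 3954 in the control libraries, 1635, 2024 and 2152 after CK666 and 2435, 2417 and 2174 after CytoD. CK666 libraries lay just below CytoD libraries, with -1.06 ± 0.12 (adjusted p = 5.27e-17) for CK666 and -0.80 ± 0.12 (adjusted p = 4.16e-10) for CytoD. Rpa2, the middle subunit, was at 762, 757 and 785 in the control libraries, 465, 329 and 292 after CK666 and 299, 364 and 302 after CytoD. The drug groups overlapped, with -1.07 ± 0.18 (adjusted p = 5.36e-08) for CK666 and -1.26 ± 0.18 (adjusted p = 1.22e-10) for CytoD.

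Among the 5 nucleotide supply genes, 4 fell with CK666 and all 5 with CytoD. Rrm1, the large subunit of ribonucleotide reductase, was at 8691, 8049 and 8571 in the control libraries, 3819, 3425 and 3359 after CK666 and 5008, 5044 and 5219.7 after CytoD. CK666 was lower than CytoD without overlap, with -1.24 ± 0.087 (adjusted p = 3.18e-44) for CK666 and -0.73 ± 0.087 (adjusted p = 6.44e-16) for CytoD. Rrm2 was at 20679.6, 19959.5 and 21086 in the control libraries, 9926, 9029 and 9356 after CK666 and 9690.4, 9093 and 9376 after CytoD. The drug groups overlapped, at -1.11 ± 0.076 (adjusted p = 3.15e-46) for CK666 and -1.14 ± 0.076 (adjusted p = 4.10e-48) for CytoD. Tyms, thymidylate synthase, was at 1321, 1225 and 1380.4 in the control libraries, 669, 549 and 627 after CK666 and 896, 804 and 835 after CytoD. CK666 was the lower group, with -1.07 ± 0.12 (adjusted p = 1.49e-18) for CK666 and -0.64 ± 0.12 (adjusted p = 4.15e-07) for CytoD. Tk1, the thymidine kinase of the salvage route, was at 2665, 2612 and 2333 in the control libraries, 1331, 822 and 923 after CK666 and 1393, 1311 and 1505 after CytoD. CK666 1 overlapped the CytoD libraries, with -1.29 ± 0.17 (adjusted p = 1.96e-12) for CK666 and -0.86 ± 0.17 (adjusted p = 5.66e-06) for CytoD. Dut, which destroys dUTP, was at 1821, 1601 and 1749.7 in the control libraries, 1937, 1148 and 1202 after CK666 and 632, 723 and 757 after CytoD. CK666 1 lay above control and the other CK666 libraries below it, so CK666 gave -0.26 ± 0.19 (adjusted p = 0.312), whereas CytoD gave -1.30 ± 0.20 (adjusted p = 5.29e-10).

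All 3 chromatin genes fell with both drugs. Uhrf1, which guides maintenance of DNA methylation behind the fork, was at 3763, 3813 and 4011 in the control libraries, 940.1, 1218 and 1099.8 after CK666 and 1378, 1354 and 1423 after CytoD. CK666 libraries were below CytoD libraries, with -1.82 ± 0.11 (adjusted p = 5.91e-59) for CK666 and -1.48 ± 0.11 (adjusted p = 1.41e-39) for CytoD. Chaf1a, the large subunit of the CAF-1 histone chaperone, was at 1407, 1572 and 1419 in the control libraries, 690.0, 625 and 629 after CK666 and 571, 519.9 and 609 after CytoD. CytoD was the lower group, with -1.16 ± 0.11 (adjusted p = 8.63e-24) for CK666 and -1.38 ± 0.11 (adjusted p = 3.30e-32) for CytoD. Chaf1b, the middle CAF-1 subunit, changed by -1.25 ± 0.14 (adjusted p = 1.29e-18) and -0.996 ± 0.14 (adjusted p = 4.21e-12).

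A direct test of CK666 against CytoD asked where the drugs differed. By more than 2-fold 2 genes, Cdt1 and Dut, were higher with CK666 (5.08% of all tested genes) and 0 were lower (6.74% of all), with 14 lower at an unadjusted p below 0.05 and 0 called lower by edgeR. At an adjusted p below 0.01 alone, 6 were higher (16.9% of all) and 10 lower (14.9% of all), where edgeR gave 4 and 4. The 10 lower genes are 21.7% of the 46. The split of 10 lower and 6 higher became 13 and 4 with libraries scaled by total counts, and 16 and 4 by the upper quartile, which moves every log2 value of this comparison by -0.18. The split was 15 and 4 without CK666 1, 6 and 5 without CK666 3 and 5 and 5 without CytoD 1. With all 18 libraries in 1 fit it was 5 and 2. Cdt1 differed by 1.81 ± 0.11 (adjusted p = 5.87e-54) and Dut by 1.04 ± 0.20 (adjusted p = 8.94e-07). The call for Dut was lost without CK666 1 (0.76) or CytoD 1 (0.97) and with libraries scaled by total counts (0.98) or the upper quartile (0.86), each with an adjusted p still below 0.01. It was also lost with all 18 libraries in 1 fit, where the difference was 1.02 (adjusted p = 0.0127). The other genes higher with CK666 were Orc1, Mcm2, Mcm10 and Pold2, from 0.51 to 0.93. Those lower were Cdc6, Mcm4, Mcm6, Pola1, Prim2, Dscc1, Lig1, Rrm1, Tyms and Uhrf1, from -0.74 for Lig1 to -0.33 for Uhrf1. The MCM ring thus held genes of either direction, Mcm2 at 0.82 ± 0.092 (adjusted p = 1.58e-17) and Mcm4 at -0.72 ± 0.073 (adjusted p = 4.57e-21). For the remaining 30 genes the difference did not pass the test, which does not show that the drugs acted alike.

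The transfected baseline itself lay below the untransfected one. Against control, 27 of 46 genes fell in siControl at an adjusted p below 0.01 (20.4% of all tested genes) and 0 rose (21.7% of all). Past 2-fold 17 fell (10.1% of all) and 0 rose (14.1% of all), with 0 higher at an unadjusted p below 0.05 and by edgeR. The median log2 difference was -0.76, against 0.035 over all genes tested. Transfection, the siRNA and the experiment cannot be told apart in it. The widest difference was that of Pole, at -2.83 ± 0.15 (adjusted p = 6.16e-81), followed by Pola1 at -2.36 ± 0.30 (adjusted p = 8.50e-14) and Uhrf1 at -1.85 ± 0.12 (adjusted p = 1.55e-50). Gmnn had the highest value, 0.46 ± 0.29 (adjusted p = 0.170). Without siControl 2 the number below by more than 2-fold was 22.

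Knockdown of Arp4 lowered part of the machinery. Against siControl, 16 of 46 genes fell at an adjusted p below 0.01 (13.1% of all tested genes), 9 by edgeR, and 0 rose (11.9% of all). By more than 2-fold 9 fell (9.49% of all) and 0 rose (6.69% of all), with 1 higher at an unadjusted p below 0.05 and 0 called higher by edgeR. These 9 were Mcm2, Mcm6, Mcm10, Gins2, Pold1, Pold2, Tk1, Uhrf1 and Chaf1b. The median log2 fold change was -0.69, against -0.053 over all genes tested, and the siArp4 libraries lay below all siControl libraries for 26 genes (20.4% of all genes). The count of 16 was 25 without siControl 1 and 24 with all 18 libraries in 1 fit. The count of genes below by more than 2-fold was 17 without siControl 1, 8 without siControl 2 and 9 without siControl 3, and the median was -0.79, -0.58 and -0.70. Without siControl 2, the log2 fold change of Pold1 was -0.91 (adjusted p = 0.0376), that of Pold2 -0.78 (adjusted p = 0.0725), and Dut, which is not called with all libraries, was called higher with 1.33 (adjusted p = 2.51e-04). Without siControl 3, that of Pold2 was -1.53 (adjusted p = 0.0146). Mitochondrial transcripts took 2.67% to 3.26% of counts in siArp4 against 1.30% to 2.65% in siControl, and their part in the result was not tested.

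In siArp4+CK666 most of the machinery lay below siControl. By sign 43 of 46 genes were lower than siControl, against 40 in siArp4 alone. With the combination 36 of 46 genes fell at an adjusted p below 0.01 (15.8% of all tested genes) and 1, Cdt1, rose (14% of all). Past 2-fold 34 fell (12.4% of all) and 0 rose (8.06% of all), with 1 higher at an unadjusted p below 0.05 and 0 by edgeR. The median log2 fold change was -1.27, against -0.054 over all genes tested, from -3.88 for Cdc6 to 0.77 for Cdt1. For 36 genes all siArp4+CK666 libraries lay below all siControl libraries (21.5% of all genes). Without siControl 1, 2 or 3 the number below by more than 2-fold was 35, 29 and 32. Mitochondrial transcripts took 2.86% to 3.36% of counts in siArp4+CK666 against 1.30% to 2.65% in siControl. The summed mesenchymal markers lay at 139537 to 157955 normalized counts in siArp4+CK666, 251744 to 283391 in siArp4 and 161425 to 245383 in siControl. The part of both in the result was not tested.

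Against siArp4 alone, the addition of CK666 lowered 13 genes at an adjusted p below 0.01 (6.07% of all tested genes), 6 by edgeR, and raised 1 (3.82% of all). By more than 2-fold 11 fell (4.12% of all), which were Cdc6, Gmnn, Mcm5, Mcm6, Gins2, Prim1, Pole, Dscc1, Tk1, Uhrf1 and Chaf1a, and 1, Cdt1, rose (1.63% of all). The median log2 fold change was -0.66, against 0.016 over all genes tested, and 34 genes had all siArp4+CK666 libraries below all siArp4 libraries (20.7% of all genes). The count of 13 was 20 without siControl 1, without siControl 2 or by the upper quartile, and 25 with all 18 libraries in 1 fit. It was 7 without siArp4 1 and 8 without siArp4+CK666 2. The count of 11 came to 7 without siArp4 1, without siArp4+CK666 1 or without siArp4+CK666 2, and to 16 with all 18 libraries in 1 fit. The call for Cdt1 was lost without siArp4 3 (0.96) or without siArp4+CK666 3 (0.86), and also with the replicate number as a block (0.997), where its adjusted p was 0.00112. Over all alternatives the adjusted p of Cdt1 ran from 4.57e-07 to 0.0142, the last by edgeR.

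**Figure D4:**
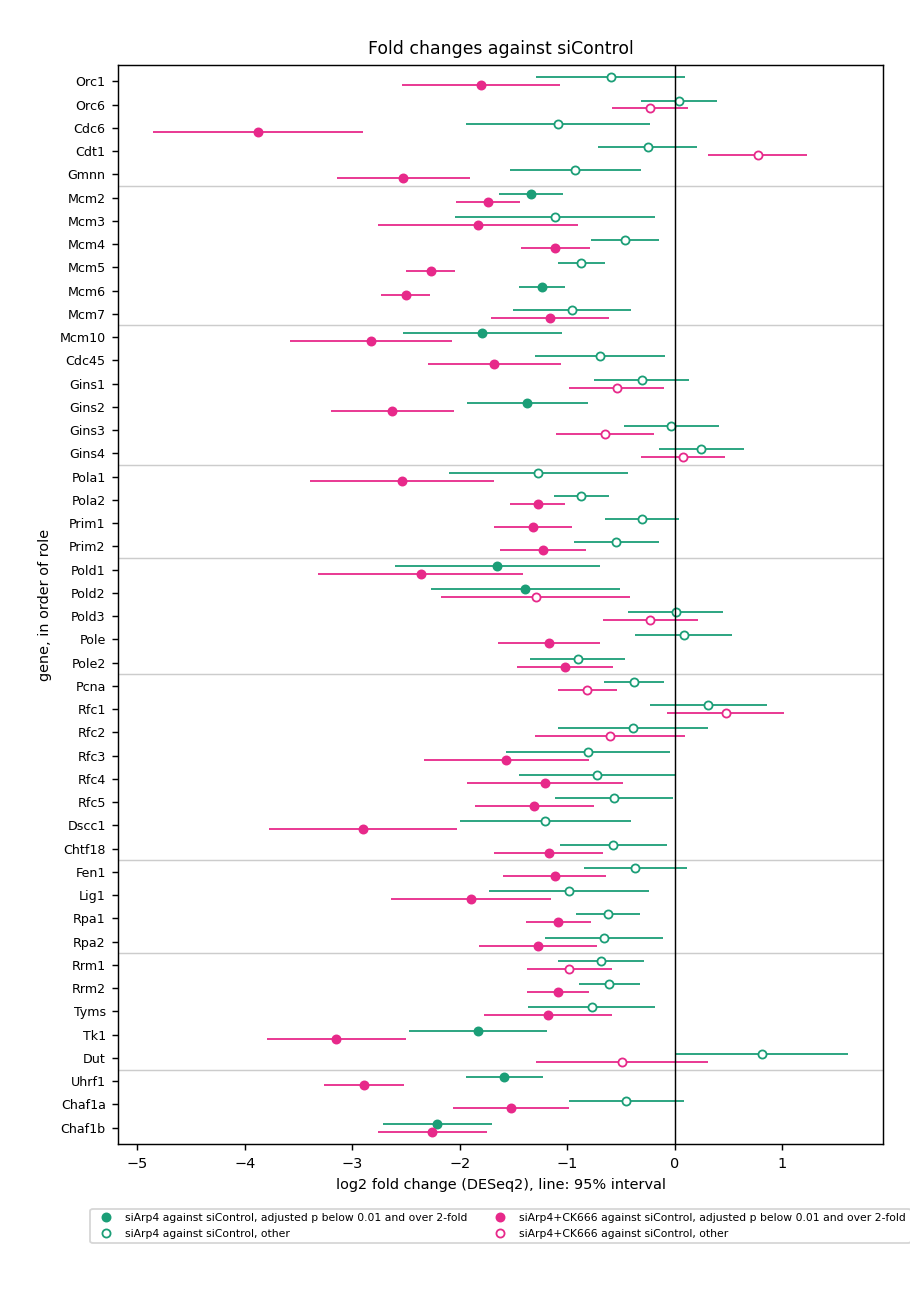
Horizontal axis, log2 fold change against siControl by DESeq2 with its 95% interval; vertical axis, 46 genes by role. Filled points passed an adjusted p below 0.01 and 2-fold (9 for siArp4, 34 for siArp4+CK666); the pair of points coincides for Chaf1b and lies far apart for Cdc6, Gmnn and Dscc1.

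Values with ± below are again log2 fold changes with their SE, here against siControl. In licensing, none of the 5 genes passed the test in siArp4 (2 were lower at an unadjusted p below 0.05, and 0 by edgeR), while 3 fell and 1 rose in siArp4+CK666. Without siControl 1, Gmnn passed in siArp4 at -1.15 (adjusted p = 9.06e-05). The rise of Cdt1 in siArp4+CK666 did not pass without siControl 1, at 0.65 (adjusted p = 0.0129), or without siControl 3, at 0.75 (adjusted p = 0.0281). Nor did it pass by edgeR, without siArp4 2 or without siArp4+CK666 2. Its adjusted p reached 0.0432 over the alternatives run. Cdc6 was at 134, 228 and 126 in siControl, 61.3, 126 and 45.2 with siArp4 and 10.524, 9.67 and 13.002 with siArp4+CK666. The siArp4+CK666 libraries were far below all others and siArp4 lay below siControl by less than 1 count at the nearest libraries (126.1 and 126.3), so -1.09 ± 0.44 (adjusted p = 0.0402) for siArp4 became -3.88 ± 0.50 (adjusted p = 1.35e-13) for siArp4+CK666. Cdt1 was at 545, 819.5 and 659 in siControl, 639, 561 and 523 with siArp4 and 881, 1157 and 1422 with siArp4+CK666. It was highest with CK666, and siControl and siArp4 overlapped, with -0.25 ± 0.23 (adjusted p = 0.442) for siArp4 and 0.77 ± 0.23 (adjusted p = 0.00381) for siArp4+CK666. Gmnn was at 485, 1034 and 716 in siControl, 402, 433 and 356 with siArp4 and 96.8, 121 and 171 with siArp4+CK666. The 3 groups did not overlap, in descending order, with -0.93 ± 0.31 (adjusted p = 0.0112) for siArp4 and -2.53 ± 0.32 (adjusted p = 3.12e-14) for siArp4+CK666. Orc1 was at 86.0, 85.3 and 77.7 in siControl, 48.4, 78.5 and 41.1 with siArp4 and 30.5, 17.4 and 23.8 with siArp4+CK666. Only the siArp4+CK666 libraries lay apart from both other groups, with -0.60 ± 0.35 (adjusted p = 0.187) for siArp4 and -1.80 ± 0.38 (adjusted p = 1.20e-05) for siArp4+CK666. Orc6 was at 679.8, 937 and 817 in siControl, 869, 869 and 798 with siArp4 and 583, 727 and 766 with siArp4+CK666. siArp4+CK666 lay below siArp4 and both overlapped siControl, with 0.040 ± 0.18 (adjusted p = 0.895) for siArp4 and -0.23 ± 0.18 (adjusted p = 0.316) for siArp4+CK666.

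In the MCM ring 4 of 6 genes fell in siArp4, 3 of them by edgeR, and all 6 in siArp4+CK666, each of the latter by more than 2-fold. Mcm2 was at 1610.0, 1825 and 1466 in siControl, 702, 608 and 657 with siArp4 and 525, 469 and 478 with siArp4+CK666. Most of its drop was present in siArp4, with -1.34 ± 0.15 (adjusted p = 2.20e-17) for siArp4 and -1.74 ± 0.15 (adjusted p = 9.73e-29) for siArp4+CK666. Mcm5 was at 1656, 1624 and 1632 in siControl, 932, 924 and 880.2 with siArp4 and 337, 339 and 346 with siArp4+CK666. It fell in both steps without overlap, with -0.87 ± 0.11 (adjusted p = 1.18e-13) for siArp4 and -2.27 ± 0.12 (adjusted p = 5.09e-82) for siArp4+CK666. Mcm6 was at 2049, 2142 and 2224 in siControl, 934, 925 and 911 with siArp4 and 365, 382 and 388 with siArp4+CK666. The libraries of each group were close together and the groups far apart, with -1.24 ± 0.11 (adjusted p = 3.40e-27) for siArp4 and -2.50 ± 0.12 (adjusted p = 6.25e-102) for siArp4+CK666. Mcm4 was at 2277, 1752 and 1995 in siControl, 1471, 1400.5 and 1567 with siArp4 and 996, 901 and 909 with siArp4+CK666. The groups descended, with -0.47 ± 0.16 (adjusted p = 0.0144) for siArp4 and -1.11 ± 0.16 (adjusted p = 1.25e-10) for siArp4+CK666. Mcm3 and Mcm7 had siControl 2 far above the rest, at 5115 and 3636 normalized counts, and changed by -1.83 ± 0.48 (adjusted p = 5.76e-04) and -1.16 ± 0.28 (adjusted p = 1.95e-04) in siArp4+CK666. Without siControl 2 these values were -1.12 (adjusted p = 0.00636) and -0.77 (adjusted p = 2.71e-07), while without siControl 1 the siArp4 value of Mcm3 was -1.498 (adjusted p = 1.64e-04). Without siControl 2 the siArp4 value of Mcm4 was -0.57 (adjusted p = 4.00e-04). Within the ring, Mcm4 counts per Mcm6 count were 0.942 ± 0.152 in siControl (SD, n = 3), 1.603 ± 0.106 in siArp4 and 2.48 ± 0.216 in siArp4+CK666, against 0.820 ± 0.0133 in control and 0.766 ± 0.0643 with CK666. This ratio too was chosen after the values were seen.

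Of 6 helicase activation genes, 2 fell in siArp4 and 3 in siArp4+CK666. Cdc45 was at 303, 635 and 337 in siControl, 295, 258 and 241 with siArp4 and 137, 108 and 153 with siArp4+CK666. Library siControl 2 stood far above the other siControl libraries, with -0.70 ± 0.31 (adjusted p = 0.0666) for siArp4 and -1.68 ± 0.31 (adjusted p = 7.77e-07) for siArp4+CK666. Gins2 was at 1193, 1382 and 1554 in siControl, 652, 498 and 471 with siArp4 and 139, 229 and 306 with siArp4+CK666. The groups descended without overlap, with -1.37 ± 0.29 (adjusted p = 1.69e-05) for siArp4 and -2.63 ± 0.29 (adjusted p = 5.49e-18) for siArp4+CK666. Mcm10 changed by -1.79 ± 0.38 (adjusted p = 1.81e-05) in siArp4 and -2.83 ± 0.38 (adjusted p = 3.60e-12) in siArp4+CK666. The log2 fold changes of Gins1, Gins3 and Gins4 were -0.54, -0.65 and 0.077 in siArp4+CK666, none of them past the test. Without siControl 1, Cdc45 passed in siArp4 at -0.88 (adjusted p = 0.00951) and Gins1 in siArp4+CK666 at -0.67 (adjusted p = 0.00936), and without siControl 2, Gins3 passed in siArp4+CK666 at -0.76 (adjusted p = 0.00607).

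Polymerase alpha-primase held 1 gene that fell in siArp4, Pola2 at -0.87 ± 0.13 (adjusted p = 2.91e-10), and 4 that fell in siArp4+CK666. Pola1 was at 501, 134 and 291 in siControl, 122, 135 and 138 with siArp4 and 53.7, 59.0 and 48.8 with siArp4+CK666. Library siControl 2 was as low as siArp4, so siArp4 gave -1.27 ± 0.43 (adjusted p = 0.0113) and siArp4+CK666 -2.54 ± 0.44 (adjusted p = 5.86e-08). Without siControl 2 the siArp4 value was -1.64 (adjusted p = 2.34e-07). Prim1 was at 328, 292 and 339 in siControl, 241, 285 and 265 with siArp4 and 122, 122 and 144 with siArp4+CK666. siArp4 lay just below siControl and siArp4+CK666 far below both, with -0.31 ± 0.18 (adjusted p = 0.175) for siArp4 and -1.32 ± 0.18 (adjusted p = 1.72e-11) for siArp4+CK666. The log2 fold changes of Prim2 were -0.54 and -1.23, of which the latter passed, and without siControl 2 the former passed too, at -0.71 (adjusted p = 5.78e-05).

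Of polymerases delta and epsilon, 3 of 5 genes fell in siArp4, 0 of them by edgeR, and 3 in siArp4+CK666. Pole was at 164, 222 and 225 in siControl, 199, 250.003 and 208 with siArp4 and 89.5, 76.4 and 106 with siArp4+CK666. siControl and siArp4 overlapped and siArp4+CK666 was below both, with 0.085 ± 0.23 (adjusted p = 0.819) for siArp4 and -1.17 ± 0.24 (adjusted p = 8.14e-06) for siArp4+CK666. Pold1 was at 395, 1826 and 777 in siControl, 332, 404 and 227 with siArp4 and 149, 176 and 256 with siArp4+CK666. The siControl libraries were the most widely spread of any group in any of the 46 genes, and siArp4 overlapped siControl 1, with -1.65 ± 0.49 (adjusted p = 0.00320) for siArp4 and -2.36 ± 0.49 (adjusted p = 8.77e-06) for siArp4+CK666. On the log2 scale Pole2 changed by -0.90 and -1.02, past the test in both groups, and differences were 0.0077 and -0.23 for Pold3, past it in neither, and -1.39 and -1.29 for Pold2, past it in siArp4. In siArp4 the adjusted p by edgeR was 0.0175 for Pold1 and 0.0267 for Pold2. Without siControl 1, Pold2 passed in siArp4+CK666, at -1.62 (adjusted p = 8.92e-05).

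Among the clamp and its loaders 0 of 8 genes fell in siArp4 (5 were lower at an unadjusted p below 0.05, and 0 by edgeR) and 6 in siArp4+CK666. Without siControl 1, 4 of the 8 passed in siArp4, which were Pcna at -0.47 (adjusted p = 0.00153), Rfc3 at -1.14 (adjusted p = 3.04e-04), Rfc4 at -1.02 (adjusted p = 0.00255) and Dscc1 at -1.42 (adjusted p = 0.00380). Pcna was at 3433, 4294 and 4157 in siControl, 3225, 3069.7 and 2989.7 with siArp4 and 2032, 2340.2 and 2419 with siArp4+CK666. The groups descended by narrow gaps, with -0.38 ± 0.14 (adjusted p = 0.0247) for siArp4 and -0.81 ± 0.14 (adjusted p = 9.05e-08) for siArp4+CK666. Rfc1 was at 1400.4, 967 and 1273 in siControl, 1435, 1563 and 1608 with siArp4 and 1970.1, 2007 and 1098 with siArp4+CK666. Every siArp4 library lay above every siControl library, with 0.31 ± 0.28 (adjusted p = 0.412) for siArp4 and 0.47 ± 0.28 (adjusted p = 0.169) for siArp4+CK666. Rfc3 was at 398, 1388 and 707 in siControl, 482, 472 and 479.6 with siArp4 and 225, 298 and 317 with siArp4+CK666. siControl 2 was again the highest, with -0.81 ± 0.39 (adjusted p = 0.0932) for siArp4 and -1.57 ± 0.39 (adjusted p = 3.13e-04) for siArp4+CK666. Dscc1 was at 76.0, 129 and 126 in siControl, 70.8, 45.4 and 28.8 with siArp4 and 13.7, 15.5 and 15.2 with siArp4+CK666. The siArp4+CK666 libraries were the lowest of all, with -1.21 ± 0.41 (adjusted p = 0.0114) for siArp4 and -2.90 ± 0.45 (adjusted p = 9.66e-10) for siArp4+CK666. The log2 fold changes of Rfc2, Rfc4, Rfc5 and Chtf18 were -0.60, -1.21, -1.31 and -1.17 in siArp4+CK666, and all but Rfc2 passed. Rfc4 did not pass by edgeR (adjusted p = 0.0178), without siControl 2, at -0.80 (adjusted p = 0.0344), without siControl 3, at -1.25 (adjusted p = 0.0180), or without siArp4+CK666 1 (adjusted p = 0.0353) or 2 (adjusted p = 0.0333). Rfc2 passed without siControl 1, at -0.90 (adjusted p = 0.00273).

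In maturation and single-strand binding 1 of 4 genes, Rpa1, fell in siArp4 (0 by edgeR) and all 4 in siArp4+CK666. Rpa1 was at 2570.4, 2356 and 2189 in siControl, 1438, 1548 and 1715 with siArp4 and 1231, 1066 and 1067 with siArp4+CK666. The groups descended without overlap, with -0.62 ± 0.15 (adjusted p = 3.28e-04) for siArp4 and -1.09 ± 0.15 (adjusted p = 3.02e-11) for siArp4+CK666. Fen1 was at 791, 1459 and 1002 in siControl, 894, 815 and 839 with siArp4 and 414, 529.7 and 556 with siArp4+CK666. siArp4 overlapped siControl, with -0.37 ± 0.24 (adjusted p = 0.246) for siArp4 and -1.12 ± 0.25 (adjusted p = 3.30e-05) for siArp4+CK666. Lig1 was at 1149.9, 3283 and 1381 in siControl, 1026, 993 and 948 with siArp4 and 458, 418 and 685 with siArp4+CK666. siControl 2 was more than 2-fold above the other siControl libraries, with -0.98 ± 0.38 (adjusted p = 0.0309) for siArp4 and -1.90 ± 0.38 (adjusted p = 4.81e-06) for siArp4+CK666. Rpa2 was at 539, 1136 and 768 in siControl, 527, 554 and 485 with siArp4 and 273, 351 and 389 with siArp4+CK666. siArp4 reached into the siControl range, with -0.66 ± 0.28 (adjusted p = 0.0537) for siArp4 and -1.27 ± 0.28 (adjusted p = 3.93e-05) for siArp4+CK666. Without siControl 1, Lig1 and Rpa2 passed in siArp4, at -1.25 (adjusted p = 9.30e-04) and -0.88 (adjusted p = 6.03e-04), and without siControl 2 the siArp4+CK666 value of Lig1 was -1.31 (adjusted p = 2.23e-07).

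In nucleotide supply 3 of 5 genes fell in siArp4, 1 of them by edgeR, and 4 in siArp4+CK666. Tk1 was at 1221, 3004 and 1926 in siControl, 568, 623 and 561 with siArp4 and 183, 207 and 306 with siArp4+CK666. The 3 groups were apart, with -1.83 ± 0.33 (adjusted p = 3.12e-07) for siArp4 and -3.15 ± 0.33 (adjusted p = 6.71e-20) for siArp4+CK666. Rrm1 was at 2899, 4462 and 4236 in siControl, 2612, 2485 and 2218 with siArp4 and 1710.2, 2119.8 and 2059 with siArp4+CK666. It descended without overlap, with -0.69 ± 0.20 (adjusted p = 0.00336) for siArp4 and -0.98 ± 0.20 (adjusted p = 9.36e-06) for siArp4+CK666. Rrm2 was at 7367, 5975 and 7543 in siControl, 4729, 4490.1 and 4725 with siArp4 and 3265, 3397 and 3220.2 with siArp4+CK666. It descended as Rrm1 did, with -0.61 ± 0.15 (adjusted p = 2.17e-04) for siArp4 and -1.09 ± 0.15 (adjusted p = 2.08e-12) for siArp4+CK666. Tyms was at 686, 479.6 and 749.6 in siControl, 444, 367 and 332 with siArp4 and 182, 301 and 372 with siArp4+CK666. siArp4 and siArp4+CK666 overlapped, with -0.77 ± 0.30 (adjusted p = 0.0336) for siArp4 and -1.18 ± 0.30 (adjusted p = 4.97e-04) for siArp4+CK666. Dut was at 984, 3349 and 1814 in siControl, 3956, 3970.2 and 2964 with siArp4 and 981, 1496 and 1892 with siArp4+CK666. Its siArp4 libraries were the highest except for an overlap with siControl 2, with 0.81 ± 0.41 (adjusted p = 0.112) for siArp4 and -0.49 ± 0.41 (adjusted p = 0.356) for siArp4+CK666. In siArp4, Rrm1 did not pass without siControl 2, at -0.59 (adjusted p = 0.0129), or without siControl 3, at -0.62 (adjusted p = 0.0377). Tyms passed in siArp4 without siControl 2, at -0.96 (adjusted p = 0.00396), and did not pass in siArp4+CK666 without siControl 3, at -1.05 (adjusted p = 0.0115).

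The chromatin genes held the widest drop of siArp4. Chaf1b was at 619.6, 1089.7 and 687 in siControl, 201, 174 and 149 with siArp4 and 174, 157 and 171 with siArp4+CK666. Its siArp4 libraries were far below siControl and overlapped siArp4+CK666, with -2.21 ± 0.26 (adjusted p = 5.35e-16) for siArp4 and -2.26 ± 0.26 (adjusted p = 8.88e-17) for siArp4+CK666. Chaf1a, its partner, was at 813, 428 and 751 in siControl, 499, 436 and 552 with siArp4 and 226, 252 and 219 with siArp4+CK666. siArp4 overlapped siControl 2, with -0.45 ± 0.27 (adjusted p = 0.196) for siArp4, -0.70 (adjusted p = 4.16e-04) without that library, and -1.53 ± 0.28 (adjusted p = 2.97e-07) for siArp4+CK666. Uhrf1 was at 1131, 1081 and 999 in siControl, 335, 383 and 371 with siArp4 and 112, 155 and 168 with siArp4+CK666. It fell in both steps without overlap, with -1.58 ± 0.18 (adjusted p = 1.14e-16) for siArp4 and -2.89 ± 0.19 (adjusted p = 3.33e-50) for siArp4+CK666.

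Whether CK666 acted differently after knockdown was tested as the change from siArp4 to siArp4+CK666 minus the change from control to CK666, over all 18 libraries. A positive value means a smaller fall, or a larger rise, in siArp4 cells. By more than 2-fold 2 genes, Mcm4 and Chaf1b, had a positive difference (1.89% of all tested genes) and 0 a negative one (2.51% of all), with 1 negative at an unadjusted p below 0.05 and 0 by edgeR. At an adjusted p below 0.01 alone 9 were positive (3.75% of all), 1 by edgeR, and 0 negative (4.05% of all). Of 46 estimates 36 were above 0, with a median of 0.38 against -0.034 over all genes tested. The count of 9 was 4 without control 1, without siArp4 1 or without siArp4+CK666 3, and 10 without siControl 2. The median was 0.22 without siArp4+CK666 3. Mcm4 changed by -1.88 with CK666 in untransfected cells and by -0.64 in siArp4 cells, a difference of 1.23 ± 0.13 (adjusted p = 1.66e-17). Chaf1b changed by -1.25 and -0.046, a difference of 1.201 ± 0.29 (adjusted p = 6.87e-04). The other 7 were Mcm6, Pola2, Pole2, Pcna, Rpa1, Rrm1 and Rrm2, from 0.50 for Mcm6 to 0.96 for Pole2. Dut had the lowest estimate, -1.05 ± 0.49 (adjusted p = 0.152). Without CK666 1 the count of positive differences over 2-fold was 4, as Pole2 (1.09) and Rrm1 (1.005) passed it too. The siArp4 cells differ from the untransfected ones by transfection and experiment as well as by knockdown, which cannot be told apart in this difference.

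**Figure D5:**
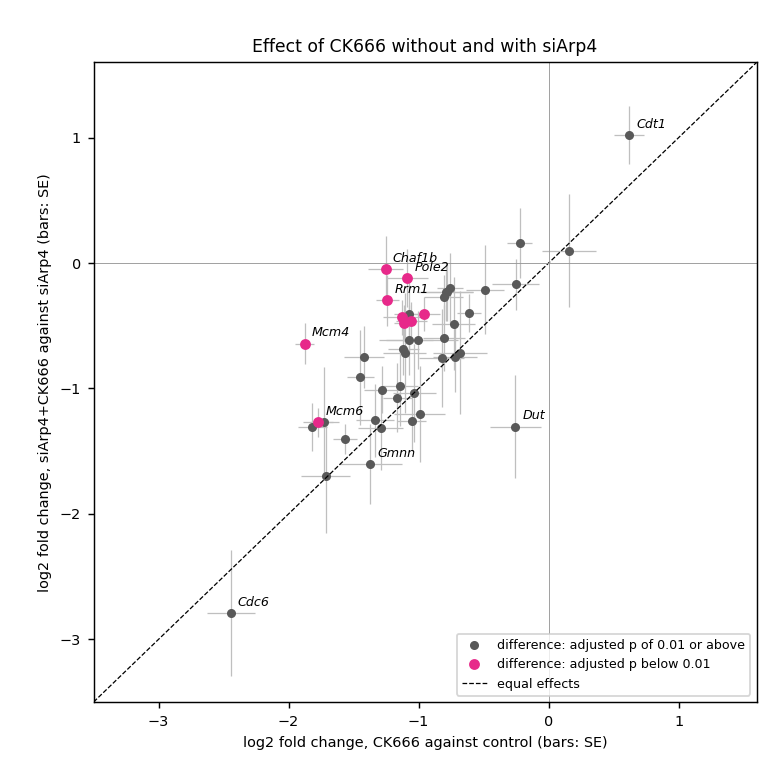
Horizontal axis, log2 fold change of CK666 against control; vertical axis, log2 fold change of siArp4+CK666 against siArp4; bars are SE and the dashed line marks equal effects. Of 46 genes the 9 in pink differ at an adjusted p below 0.01 and all lie above the line; Cdc6 and Cdt1 lie at the opposite ends.

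Genes with and without an E2F word are set side by side as a description. With CK666 the median log2 fold change was -1.09 over 15 genes with a word and -1.06 over 22 without, and with CytoD it was -1.22 and -0.98. In siArp4 it was -0.96 and -0.64, and in siArp4+CK666 -1.83 and -1.24. Cdc6 and Cdt1, both with a word, were the lowest and the highest of the 46 genes with CK666.

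Replication genes outside the 46 were counted from a list of 44, among them other origin, helicase, checkpoint and histone chaperone genes. With CK666 23 of them fell at an adjusted p below 0.01 (14.7% of all tested genes) and 4 rose (15.3%), and with CytoD 28 fell (16%) and 1 rose (13.6%). Knockdown lowered 10 (13.1% of all tested genes) and raised 3 (11.9%), while siArp4+CK666 lowered 21 (15.8%) and raised 3 (14%) against siControl. Their medians were -0.67, -0.91, -0.33 and -0.66, each nearer to 0 than the median of the 46 genes. Pclaf, which binds PCNA, was the lowest of the list with CK666, in siArp4 and in siArp4+CK666. Of 25 regulators of the G1/S step, such as E2F, pocket protein and cyclin genes, 15 fell and 1, Rb1, rose with CK666, and 19 fell and 1, Rbl2, rose with CytoD. In siArp4 8 fell and 1, E2f5, rose, and in siArp4+CK666 11 fell and E2f5 rose again, all to be read against the same shares over all tested genes. Pclaf and these regulators were named after their values were seen.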

How the data were processed

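Paired-end, unstranded RNA-seq of 18 MSC libraries (6 groups of 3) was deposited as a single table of estimated counts per gene, which the authors made with Salmon, version 1.2.1 by the submitters' processing notes, on GRCm38 with the GENCODE vM25 annotation. How transcripts were summed to genes is not given in the sources used here. These counts were not normalized, and totals were 18075610 to 24733212 per library, and low levels carry counting error beside the spread between libraries.

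Counts were rounded to whole numbers and tested with the Wald test of DESeq2 1.42.0 (R 4.3.3), fitted on the 9 libraries of each experiment, or on all 18 for the difference between the effects of CK666 and for siControl against control. P-values were adjusted by Benjamini-Hochberg over all genes tested. A gene rose or fell at an adjusted p below 0.01, and the stricter count also needed a change over 2-fold. Symbols were matched for 53307 of 54347 identifiers. Promoter sequences came from RefSeq on GRCm38.p6. Scripts were tested on simulated data. Alternatives were edgeR 4.0.16 (quasi-likelihood), other scalings, a low count filter (10 counts in 3 libraries), no fold minimum, a replicate block, all 18 libraries in 1 fit, and each library left out. Deviations of same-numbered control and CK666 libraries had small positive correlations (0.17, 0.12 and 0.12). Over all 18 same-numbered pairs the range was -0.46 to 0.63. These values do not establish a pairing, and the labels name no shared source.

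All 46 genes could be named. Values in every library were given for 27 genes set by role, for the lowest and the highest gene of each comparison, and for genes called against the majority. Pold2 was added after its values were seen. The genes and lists were chosen with earlier results of these data known.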

Additional observations from a re-analysis of the deposited data

Results flagged for a closer look

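The effect of CK666 in siArp4 cells differed from that in untransfected cells for 2 of the 46 genes by more than 2-fold. Both differences were positive (1.89% of all tested genes by the same rule) and 0 were negative (2.51% of all). For Mcm4 the difference was 1.23 on the log2 scale (adjusted p = 1.66e-17, DESeq2 Wald test of the difference). Mcm4 kept its call under every alternative run for this comparison. For Chaf1b the difference was 1.201 (adjusted p = 0.000687 by DESeq2), and with edgeR it was 1.18 (adjusted p = 0.0129), which did not pass. Over all alternatives run, the Chaf1b difference was 1.10 to 1.33 with adjusted p from 1.33e-07 to 0.0129. Chaf1b was already low in siArp4 alone, at 201, 174 and 149 normalized counts, against 620, 1090 and 687 in siControl.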

How the results depend on the processing

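No gene past an adjusted p below 0.01 changed direction under any alternative run. Values that kept their side of the joint threshold (adjusted p below 0.01 and over 2-fold) were counted over all alternatives. They were 649 of 672 for CK666, 672 of 688 for CytoD and 250 of 256 for CK666 against CytoD. In the second experiment they were 241 of 256 for siArp4, 573 of 592 for siArp4+CK666 against siControl and 192 of 224 against siArp4. A gene not past 2-fold that lost only its adjusted p counts as kept here. Such losses occurred, as for Pold1 and Rfc2 with CK666 (adjusted p up to 0.202 and 0.190 over the alternatives). With no fold minimum, the counts became 1 higher for CK666 against control, 43 lower for CytoD, 10 lower and 6 higher for CK666 against CytoD, 16 lower for siArp4, 1 higher for siArp4+CK666 against siControl, 9 higher for the difference between the effects of CK666, and 27 lower for siControl against control. For CK666 against CytoD the number higher was 1 with total counts, the upper quartile or all 18 libraries in 1 fit, and 1 to 3 with a library left out, the 3 being without CK666 2, where Pold2 (1.16) joined Cdt1 and Dut. For siArp4 against siControl, leaving out a library gave 7 to 17 lower and 0 to 1 higher. For siArp4+CK666 against siArp4, edgeR gave 6 lower and 0 higher, the upper quartile 0 higher, and leaving out a library 7 to 14 lower and 0 to 1 higher. For the difference between the effects of CK666, edgeR gave 1 higher and leaving out a library 2 to 4. The cause of these moves was not tested. The upper quartile shifted all log2 values by 0.13 for CytoD and by 0.12 for siControl against control.

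A replicate block left 28 lower for CK666 and 24 for CytoD, and gave 8 for siArp4, 34 for siArp4+CK666 against siControl, and 11 lower and 0 higher for siArp4+CK666 against siArp4. In all, 6 of 18 same-numbered pairs had deviations correlated over 0.1 (range -0.46 to 0.63).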
